A study of Homo sapiens with 9 samples.

Results

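The 43 genes described here encode the regulators that choose splice sites: 10 SR proteins, 5 SR-related proteins, 6 kinases that phosphorylate SR proteins, 18 heterogeneous nuclear ribonucleoproteins (hnRNPs) and 4 further RNA-binding proteins. They were taken by name from a given list, and each symbol was mapped to its Ensembl identifier among the 62703 genes listed in the count files. All 43 had enough counts to be tested, among 17623 genes that did. The cells were HepG2, an established line from a human hepatocellular carcinoma. Controls were untreated, with no time in their labels, and treated cultures had eliglustat at 20 or 30 µM over 72 h. A later incubation, named in the series text, may or may not apply to these libraries or their controls; no label settles it. Eliglustat inhibits glucosylceramide synthase, the enzyme that makes the precursor of most glycosphingolipids. RNA sequencing gave 3 libraries in each of the 3 groups, all of the same line, and the labels do not say whether the 3 came from separate cultures, so the p-values measure only how these libraries spread, and that spread may be technical.

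SR proteins carry a domain rich in arginine and serine and bind exonic enhancers, where they recruit the spliceosome to nearby splice sites. The CLK and SRPK kinases phosphorylate that domain, which sets the location and activity of SR proteins, and many hnRNPs bind silencers and act against them. Many genes of these families are known to regulate their own transcripts and each other's by splicing in exons that lead to decay, which gene counts do not show.

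The libraries held 21103757 to 26782810 counts in genes. Levels are CPM, counts relative to the TMM-scaled library size, and changes are log2 ratios of group means from edgeR's quasi-likelihood test with their standard error (SE), 3 libraries a group, called at a Benjamini-Hochberg adjusted p under 0.05. All 10 hepatocyte markers were expressed, with a summed level of 32338 to 33333 CPM in controls, 35728 to 36199.8 at 20 µM and 39948 to 40339 at 30 µM. APOB carried most of that sum and its rise, from a mean of 19949.8 CPM in controls to 27773 at 30 µM. ALB, AFP, HNF4A, FGB and APOH were called lower at 30 µM (log2 changes of −0.47, −0.52, −0.23, −0.36 and −0.78), APOB, TTR and SERPINA1 higher, and APOA1 and TF neither. Of 6 fibroblast markers 5 were under 1 CPM, with summed levels of 1.01 to 1.40, 1.06 to 1.503 and 3.15 to 3.51 CPM in the same order; the sixth, PDGFRB, had means of 0.854, 1.16 and 3.01 CPM. Of 5 endothelial markers 2 were under 1 CPM (sums 4.49 to 5.54, 4.86 to 6.34 and 3.96 to 4.83 CPM). VWF had means of 0.306, 0.445 and 1.85 CPM and was called higher at 30 µM. PECAM1, with means of 1.825, 0.970 and 0.785 CPM, was called lower at both doses. CDH5, with means of 2.74, 4.38 and 1.87 CPM, was called higher at 20 µM and lower at 30 µM. Of 5 leukocyte markers 4 were under 1 CPM, PTPRC being at 0, and LYZ carried nearly all of the summed 449.8 to 496 CPM in controls, 438 to 474 at 20 µM and 636 to 667 at 30 µM. Records aligned to more than 1 place made up 12.4% to 12.8% of the control libraries, 13.3% to 15.5% at 20 µM and 14.8% to 19.5% at 30 µM, and mitochondrial mRNA 2.99% to 3.99%, 3.50% to 3.85% and 5.19% to 5.78%. The part of these measures in the changes below was not tested. Control replicate 1, 20 µM replicate 3 and 30 µM replicate 3 stood apart: their deviations from their group means correlated at 0.33 to 0.35 with each other and at −0.26 to −0.15 with those of the other 6 libraries. Deviations within a group cancel out, so the negative values follow in part from the positive ones.

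At 20 µM 31 of the 43 genes fell against control, 1 rose (CLK1) and 11 did not pass the test. Of all 17623 genes tested 34.2% were called in this comparison, made up of 16.9% called lower and 17.2% called higher. The median log2 change of the 43 was −0.20, beside 0.01 over all genes tested. At 30 µM 27 fell, 6 rose and 10 did not pass, where 60.8% of all genes were called, 31.3% lower and 29.5% higher. Their median was −0.25, beside −0.04 over all genes. Regardless of direction, the median size of the log2 change at 20 µM was 0.21 for the 43, beside 0.20 over all genes. At 30 µM it was 0.30, beside 0.40, and from 20 to 30 µM 0.12, beside 0.35. Against control the 43 thus stood out by direction and not by size. Without the 3 libraries that stood apart, 31 fell and 1 rose at 20 µM, and 26 fell and 5 rose at 30 µM. The libraries of treated and control groups did not overlap in 32 of the 43 genes at 20 µM and in 35 at 30 µM, beside 44.5% and 65.0% of all genes tested. Both comparisons use the same control libraries. In bulk RNA, fewer cells of a kind and less RNA per cell cannot be told apart.

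From 20 to 30 µM the 43 genes moved in both directions: 15 rose, 12 fell and 16 did not pass, where 57.0% of all genes were called (28.0% higher, 28.9% lower) and the median was −0.01 for the 43 and −0.03 for all genes. That split rested on the scaling, since upper-quartile scaling gave 5 higher and 22 lower, and library size alone gave 3 higher and 32 lower. With library size alone the counts at 30 µM against control were 1 higher and 38 lower. Libraries at 30 µM had TMM factors of 0.905 to 0.916, against 1.04 to 1.06 in the other groups, and leaving that scaling out moved the median of all genes by −0.21 at 30 µM against control and by −0.19 against 20 µM. The size of the falls at 30 µM moved with it too: with library size alone the median of the 43 was −0.46. That setting lowers every value at 30 µM, so it can end a rise there but not a fall. Over the 19 alternatives other than library size alone, 28 of the 31 falls at 20 µM stayed past the test in each setting. So did 25 of the 27 falls and 4 of the 6 rises at 30 µM, but not the rises of PTBP1 and RBM39. Between the doses 10 of the 12 falls and 5 of the 15 rises stayed past it in each.

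Summed over the 43 genes, the controls held 11931, 11902 and 11979 CPM, the libraries at 20 µM 10339, 10199.5 and 10507 CPM and those at 30 µM 10464, 10619 and 10401 CPM. Every treated library lay below every control library, and the treated means were 86.7% and 87.9% of the control mean. The SR protein genes held 84.5% and 80.7% of their control sum, the hnRNP genes 85.1% and 87.3%, the SR-related genes 89.0% and 87.6%, and the kinase genes 95.4% and 107%. All these shares rest on TMM scaling. Library size alone lowers every value at 30 µM, so the kinase share of 107% need not hold there. SRPK1 alone made up 234 of the 407 CPM of the kinase sum in controls. Per kilobase of exon, HNRNPA1 had the highest control level of the 43 at 157 CPM per kb, followed by HNRNPF at 138, HNRNPK at 118 and SRSF2 at 106. The lowest were CLK4 at 1.93, CLK3 at 2.12, SRPK2 at 5.52 and CLK1 at 8.58 CPM per kb. By this measure the kinases were the lowest of the set, apart from SRPK1 at 35.0. The length used merges the exons of all transcripts of a gene, which came to 20.4 kb for CLK3. In control CPM not divided by length, CLK3 (43.3) and CLK1 (44.4) lay above HNRNPH2 (39.0).

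**Figure D1:**
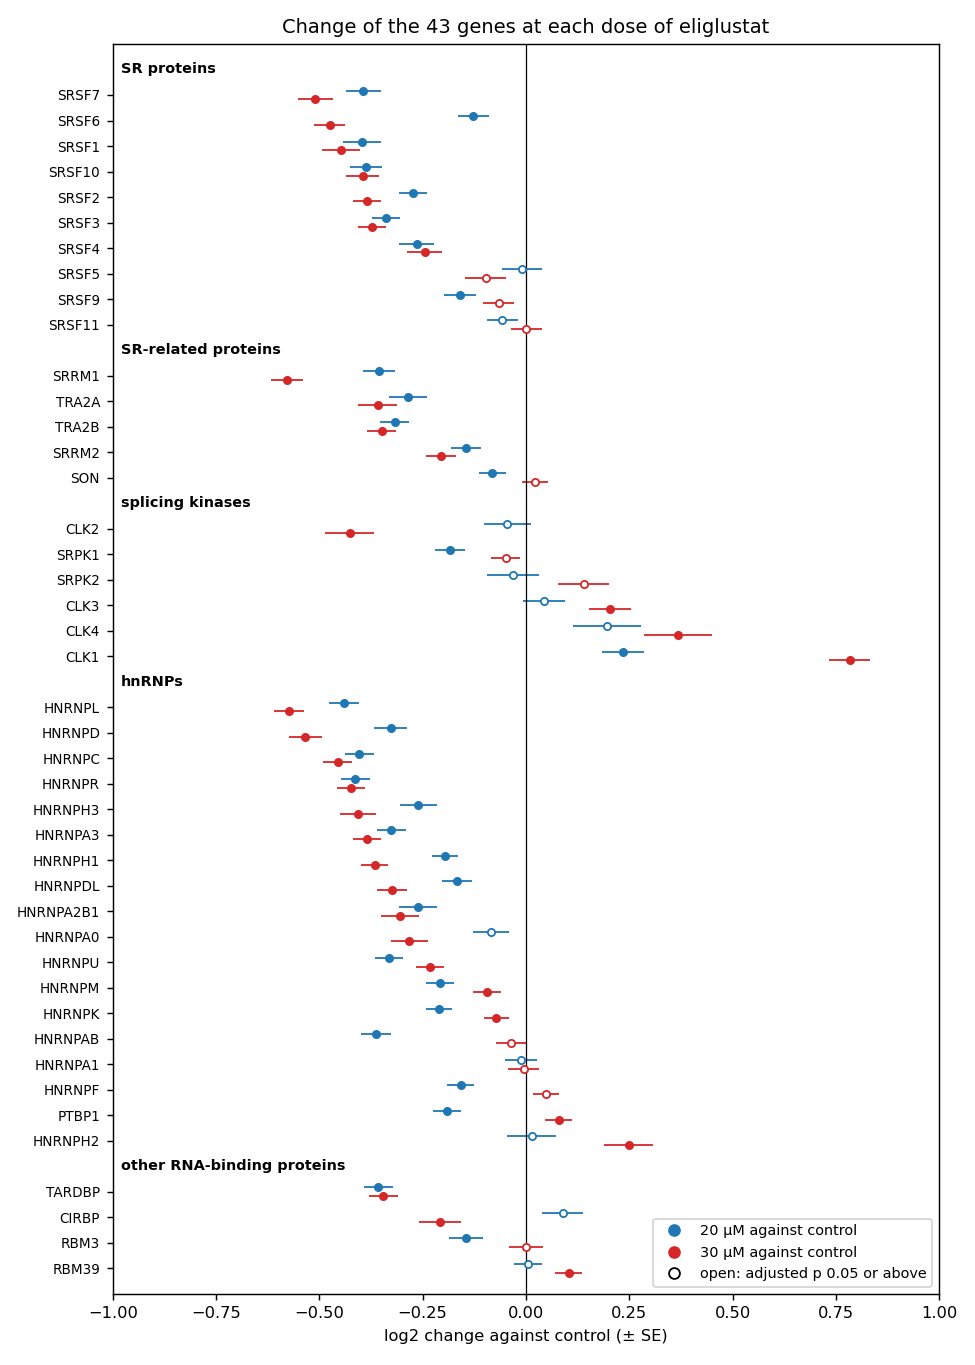
Log2 change of each of the 43 genes at 20 µM (blue) and 30 µM (red) against control, with SE bars, grouped by family; filled points passed an adjusted p of 0.05. In the SR protein, SR-related and hnRNP families most points lie left of 0 at both doses (TMM scaling), while CLK1 lies farthest right, at 0.78 at 30 µM.

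The promoters of 6 genes are shown because they form the contrasts described below: CLK1 and CLK4, which rose, beside CLK2, which fell, and HNRNPH2, which rose, beside its paralog HNRNPH1 and HNRNPL, which fell. Each line gives the part of the 250 bases before the RefSeq start that lies in no GENCODE 29 exon, on GRCh38.p14, 5′ to 3′ on the gene's own strand, from RefSeq. Capitals mark matches on either strand to the GC box GGGCGG, the CCAAT box CCAAT and the E-box CACGTG.
CLK1: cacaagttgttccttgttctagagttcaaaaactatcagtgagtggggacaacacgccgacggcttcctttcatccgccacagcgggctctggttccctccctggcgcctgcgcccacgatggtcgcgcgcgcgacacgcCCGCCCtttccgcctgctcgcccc
CLK4: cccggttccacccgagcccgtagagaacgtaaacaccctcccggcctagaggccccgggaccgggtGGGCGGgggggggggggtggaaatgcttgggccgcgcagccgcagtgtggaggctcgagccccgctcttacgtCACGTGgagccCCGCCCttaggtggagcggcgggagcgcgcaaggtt
CLK2: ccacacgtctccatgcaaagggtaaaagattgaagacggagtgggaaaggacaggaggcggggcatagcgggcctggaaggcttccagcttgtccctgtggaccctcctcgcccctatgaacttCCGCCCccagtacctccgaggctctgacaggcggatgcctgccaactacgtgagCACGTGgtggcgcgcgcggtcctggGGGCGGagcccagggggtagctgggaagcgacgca
HNRNPH2: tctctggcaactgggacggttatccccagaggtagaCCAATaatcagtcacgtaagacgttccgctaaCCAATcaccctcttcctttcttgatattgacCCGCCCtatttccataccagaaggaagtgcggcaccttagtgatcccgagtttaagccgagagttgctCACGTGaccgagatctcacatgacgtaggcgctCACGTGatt
HNRNPH1: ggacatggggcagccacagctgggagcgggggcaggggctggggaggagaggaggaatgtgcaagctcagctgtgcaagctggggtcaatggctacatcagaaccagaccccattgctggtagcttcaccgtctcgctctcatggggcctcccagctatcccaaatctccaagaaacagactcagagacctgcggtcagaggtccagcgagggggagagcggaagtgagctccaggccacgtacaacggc
HNRNPL: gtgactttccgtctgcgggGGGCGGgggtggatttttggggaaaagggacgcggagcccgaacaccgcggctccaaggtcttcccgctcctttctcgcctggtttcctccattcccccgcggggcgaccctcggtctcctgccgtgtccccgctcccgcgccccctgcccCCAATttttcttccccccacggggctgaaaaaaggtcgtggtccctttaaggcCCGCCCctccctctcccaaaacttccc
The stretches lie at chr2:200864745-200864908 (− strand) for CLK1, chr5:178627115-178627300 (− strand) for CLK4, chr1:155273517-155273754 (− strand) for CLK2, chrX:101408013-101408221 (+ strand) for HNRNPH2, chr5:179634785-179635034 (− strand) for HNRNPH1 and chr19:38852348-38852597 (− strand) for HNRNPL. Of the 43 genes 39 had a RefSeq promoter; SRSF2, TRA2A, HNRNPA1 and RBM39 had none in the table. The letters CACGTG stood in 8 of the 39 (20.5%), namely CLK2, CLK4, HNRNPA3, HNRNPD, HNRNPDL, HNRNPH2, HNRNPH3 and HNRNPM, against 8.99% of 10105 protein-coding genes tested and 6.35% of all 35116 promoters. GGGCGG stood in 61.5%, against 67.0% and 42.6%, and CCAAT in 46.2%, against 35.5% and 32.0%. TATAAA stood in 12.8%, against 5.47% and 10.7%. The cyclic AMP element TGACGTCA was in 0 of the 39, against 2.98% and 1.65%, the ETS core CCGGAAG in 10.3%, against 16.2% and 8.52%, and GGCGGGAA, which can overlap GGGCGG, in 10.3%, against 4.59% and 2.72%. Genes that rose and genes that fell both held E-boxes (CLK4 and HNRNPH2, CLK2 and HNRNPD). The median GC content was 65.2%, against 64.8% for the protein-coding genes tested.

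Of the 6 kinases 3 rose and 1 fell at 30 µM against control, a share of 66.7% called that is near the 60.8% of all genes; with library size alone 1 rose and 2 fell. CLK1, a dual-specificity kinase that releases SR proteins from nuclear speckles, was at 42.6, 45.2 and 45.4 CPM in controls, 50.5, 52.0 and 54.0 CPM at 20 µM and 79.9, 76.7 and 72.5 CPM at 30 µM. No group overlapped another, and the rise was graded with dose: 0.23 ± 0.0505 at 20 µM (adjusted p = 0.000361), 0.78 ± 0.0496 at 30 µM (1.72-fold, adjusted p = 1.78e-15) and 0.55 ± 0.0491 between the doses (adjusted p = 1.5e-11). CLK1 was the only one of the 43 called higher at 20 µM, and it stayed past the test in the same direction in all 3 comparisons under each of the 20 alternatives.

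CLK4, its closest relative, was at 14.7, 14.6 and 16.6 CPM in controls, 18.6, 17.5 and 16.5 at 20 µM and 21.7, 19.4 and 18.5 at 30 µM. The groups at 20 µM and control overlapped by 1 library, and only the change at 30 µM passed, at 0.37 ± 0.0824 (adjusted p = 0.000234; 0.0986 with library size alone and 1.84e-05 to 0.0986 over all alternatives). The change at 20 µM, 0.20 (adjusted p = 0.0658), passed without control replicate 3 (0.0321). It also passed with upper-quartile scaling (0.0471) and with a mean of at least 50 counts (0.0448). That between the doses, 0.17 (0.0717), passed without 20 µM replicate 1 (0.049) or 30 µM replicate 3 (0.0339) and with median-ratio scaling (0.0433). CLK3, a further member of the family, was at 45.2, 42.1 and 42.6 CPM, then 45.6, 44.1 and 44.3, then 49.8, 48.5 and 51.5. Its rise of 0.20 ± 0.0511 at 30 µM (adjusted p = 0.00088) turned to −0.0069 with library size alone. That of 0.16 ± 0.0511 between the doses turned to −0.03. The latter also did not pass with upper-quartile scaling (adjusted p = 0.17) or without the 3 libraries that stood apart (0.0851).

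CLK2 went the other way. It stood at 36.0, 35.7 and 33.3 CPM in controls, 34.5, 33.3 and 33.8 at 20 µM and 26.7, 25.5 and 25.9 at 30 µM. The first 2 groups overlapped, with a change of −0.05 ± 0.0573 (adjusted p = 0.601), and the libraries at 30 µM all lay below both. The fall at 30 µM was −0.43 ± 0.059 against control (adjusted p = 1.36e-07) and −0.38 ± 0.0592 against 20 µM (adjusted p = 1.38e-06).

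The SRPK kinases, which phosphorylate SR proteins in the cytoplasm before nuclear import, changed less. SRPK1 was at 226, 233 and 243 CPM in controls, 214, 203 and 201 at 20 µM and 226, 227 and 226 at 30 µM. The 20 µM libraries lay below the rest, and those at 30 µM reached the lower end of the controls. It fell at 20 µM by 0.18 on the log2 scale (SE 0.0355, adjusted p = 9.05e-05). At 30 µM it was at −0.05 (adjusted p = 0.237, or −0.11 and 0.00742 with upper-quartile scaling). It lay 0.13 ± 0.0357 higher at 30 than at 20 µM (adjusted p = 0.00162). That step was −0.06 with library size alone and did not pass with upper-quartile scaling (0.06, adjusted p = 0.165). SRPK2 was between 32.8 and 38.4 CPM in controls, 32.9 and 36.3 at 20 µM and 36.9 and 39.9 at 30 µM. With TMM only its rise between the doses passed, at 0.17 ± 0.0625 (adjusted p = 0.0205). It was −0.02 with library size alone and 0.09 with upper-quartile scaling (adjusted p = 0.206). That rise was also lost without 20 µM replicate 2 (adjusted p = 0.0815), 20 µM replicate 3 (0.0694) or 30 µM replicate 1 (0.0851), in a range of 0.00845 to 0.773 over all alternatives. The change at 30 µM against control, 0.14 ± 0.0623 (adjusted p = 0.0533), passed under 6 alternatives: median-ratio scaling (0.0237), DESeq2 (0.0469), no low-count filter (0.0407), only the groups compared (0.0247), without control replicate 2 (0.21, 0.00817) and without 30 µM replicate 3 (0.0329).

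**Figure D2:**
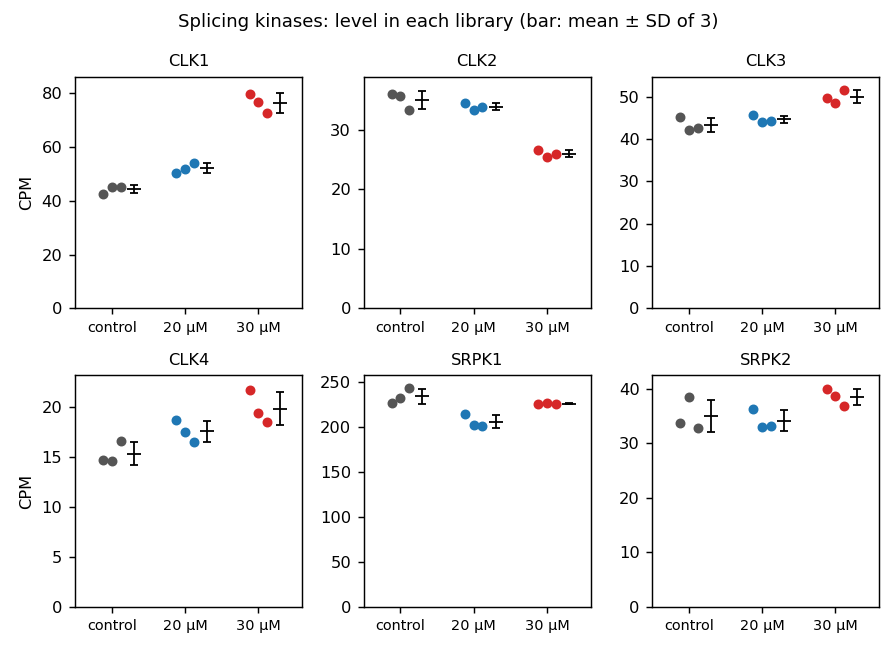
CPM in each library for the 6 kinase genes in controls and at 20 and 30 µM, with the mean and SD of 3 libraries as black bars; each axis starts at 0. CLK1 rises from 42.6 to 45.4 CPM in controls to 72.5 to 79.9 CPM at 30 µM, while CLK2 goes from 33.3 to 36.0 CPM down to 25.5 to 26.7 CPM.

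Among the 10 SR proteins 8 fell at 20 µM (80.0%, beside 16.9% of all genes tested) and 7 at 30 µM (70.0%, beside 31.3%). None rose at either dose. In either direction 60.8% of all genes were called at 30 µM. The median log2 change of the 10 was −0.27 at 20 µM and −0.38 at 30 µM (−0.59 with library size alone). The 4 largest falls at 30 µM were those of SRSF7, SRSF6, SRSF1 and SRSF10. SRSF7, which also serves in mRNA export, was at 108, 109 and 113 CPM in controls, 80.8, 81.5 and 88.3 at 20 µM and 77.7, 77.5 and 76.0 at 30 µM. All treated libraries lay below all controls, with −0.39 ± 0.0423 at 20 µM (adjusted p = 3.6e-09) and −0.51 ± 0.0427 at 30 µM (1.42-fold lower, adjusted p = 2.14e-12). The further step between the doses was small, at −0.12 (adjusted p = 0.022), and did not pass without 20 µM replicate 3 (0.185) or 30 µM replicate 3 (0.0753), in a range of 1.89e-07 to 0.323 over all alternatives.

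SRSF6 fell mostly between the doses. It was at 192, 204 and 202 CPM in controls, 179.6, 184 and 184 at 20 µM and 148, 146 and 137 at 30 µM. The 3 groups did not overlap: the changes were −0.13 ± 0.037 at 20 µM (adjusted p = 0.00675), −0.47 ± 0.0375 at 30 µM (adjusted p = 5.09e-13) and −0.35 ± 0.0376 between the doses (adjusted p = 1.16e-09). The change at 20 µM was lost without control replicate 2, at an adjusted p of 0.0517, the highest over its alternatives (lowest 0.00206).

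SRSF1, the founding member of the family, was at 121, 123 and 138 CPM in controls, 97.3, 94.9 and 98.1 at 20 µM and 90.9, 98.7 and 90.8 at 30 µM. Both doses lay below the controls and overlapped each other, at −0.40 ± 0.0461 and −0.45 ± 0.0464 (adjusted p = 2.85e-08 and 6.3e-10). In GENCODE 29 56.6% of its exon bases overlap AC015813.2 on the same strand, so part of its counts is uncertain. SRSF10, known as a repressor of splicing when it loses its phosphates, was at 175, 174 and 183 CPM, then 135, 132 and 141, then 139, 137 and 129. Here too the treated groups overlapped each other only, at −0.39 ± 0.0389 and −0.40 ± 0.039 (adjusted p = 9.49e-10 and 1.07e-10).

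SRSF2, SRSF3 and SRSF4 also fell at both doses, with changes at 30 µM of −0.39, −0.37 and −0.25. SRSF2, which binds exonic enhancers and also acts in transcription elongation, was the SR protein gene with the highest level per length, at 106 ± 0.563 CPM per kb in controls (SD, n = 3) and 81.1 at 30 µM, and 36.7% of its exon bases overlap MFSD11 on the opposite strand. SRSF5 and SRSF11 passed in no comparison with TMM and all 9 libraries. SRSF5 was at 123, 112 and 117 CPM in controls and 105, 119.7 and 105 at 30 µM, and SRSF11 at 148, 153 and 151 CPM and 152, 153 and 148. In both the treated and control libraries overlapped. SRSF5, at −0.10 (adjusted p = 0.0897) at 30 µM, passed without 30 µM replicate 2 (−0.17, 0.00476) or control replicate 2 (−0.13, 0.0404) and with upper-quartile scaling (−0.16, 0.00643). Its step between the doses, −0.09 (0.133), passed without 30 µM replicate 2 (−0.15, 0.00948) and with upper-quartile scaling (−0.16, 0.00557).

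SRSF9 was at 144, 146 and 154 CPM in controls, 130.2, 129.8 and 138 at 20 µM and 142, 142 and 142 at 30 µM. The libraries at 20 µM lay below all others. It fell there by 0.16 on the log2 scale (SE 0.038, adjusted p = 0.0011) and was at −0.07 at 30 µM (adjusted p = 0.135; −0.13 and 0.00435 with upper-quartile scaling). Its step up between the doses, at 0.09 ± 0.0382 (adjusted p = 0.0368), was −0.10 with library size alone. It was also lost without any 1 of control replicate 2, 20 µM replicates 1 and 2 and the 3 libraries at 30 µM (adjusted p of 0.0516 to 0.138), in a range of 0.0136 to 0.737 over all alternatives. Of its exon bases 46.2% overlap GATC on the opposite strand, and the strand setting of the counting is not given in the sources used here.

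All 5 SR-related genes were called lower at 20 µM (4 with median-ratio or upper-quartile scaling), beside 16.9% of all genes tested. At 30 µM 4 were (80.0%, beside 31.3%, with 60.8% of all genes called in either direction). SRRM1, a coactivator that bridges SR proteins and the spliceosome, had the largest fall of the 43 at 30 µM. It was at 156, 148 and 145 CPM in controls, 118, 118 and 115 at 20 µM and 100.3, 101 and 100.3 at 30 µM. The 3 groups did not overlap, and the changes were −0.36 ± 0.0381 (adjusted p = 3.39e-09), −0.58 ± 0.0386 (1.49-fold lower, adjusted p = 7.08e-15) and, between the doses, −0.22 ± 0.0389 (adjusted p = 9.97e-06).

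TRA2A and TRA2B, paralogs that bind GAA-rich exonic enhancers, fell together. TRA2A was at 75.9, 74.7 and 77.9 CPM, then 65.7, 58.3 and 63.5, then 59.9, 59.4 and 59.0, with −0.29 ± 0.0467 at 20 µM and −0.36 ± 0.0471 at 30 µM (adjusted p = 8.64e-06 and 4.98e-08). TRA2B was at 214, 205 and 209.9 CPM, then 170.4, 167 and 167, then 169, 165 and 159, with −0.32 ± 0.0353 and −0.35 ± 0.0354 (adjusted p = 7.17e-09 and 2e-10). In both genes all treated libraries lay below all controls. The log2 ratio of TRA2A to TRA2B within a library was −1.46 ± 0.0325 in controls (SD over the 3 libraries), −1.43 ± 0.075 with 20 µM and −1.47 ± 0.0331 with 30 µM.

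SRRM2, a large scaffold of nuclear speckles, was at 1049, 976 and 930.0 CPM in controls, 890.1, 919.7 and 863 at 20 µM and 842, 839 and 881 at 30 µM. It fell by 0.15 (SE 0.0367, adjusted p = 0.00242) and 0.21 (SE 0.0367, adjusted p = 1.78e-05) on the log2 scale. The fall at 20 µM did not pass without the 3 libraries that stood apart (adjusted p = 0.104, range 0.000204 to 0.104). SON, the other speckle scaffold, was at 464, 490.1 and 478 CPM, then 455, 451 and 448, then 482, 499.8 and 472. At 20 µM its change was −0.08 ± 0.032 (adjusted p = 0.0482), which 14 of 20 alternatives ended, among them leaving out control replicate 2 or 3, any library at 20 µM, or 30 µM replicate 1 or 2 (0.0519 to 0.238; range over all alternatives 0.0172 to 0.238). Between the doses it was 0.10 ± 0.032 higher (adjusted p = 0.00641; −0.09 with library size alone, and 0.0652 without 30 µM replicate 2, in a range of 0.000477 to 0.499), and at 30 µM it overlapped the controls (0.02, adjusted p = 0.573).

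**Figure D3:**
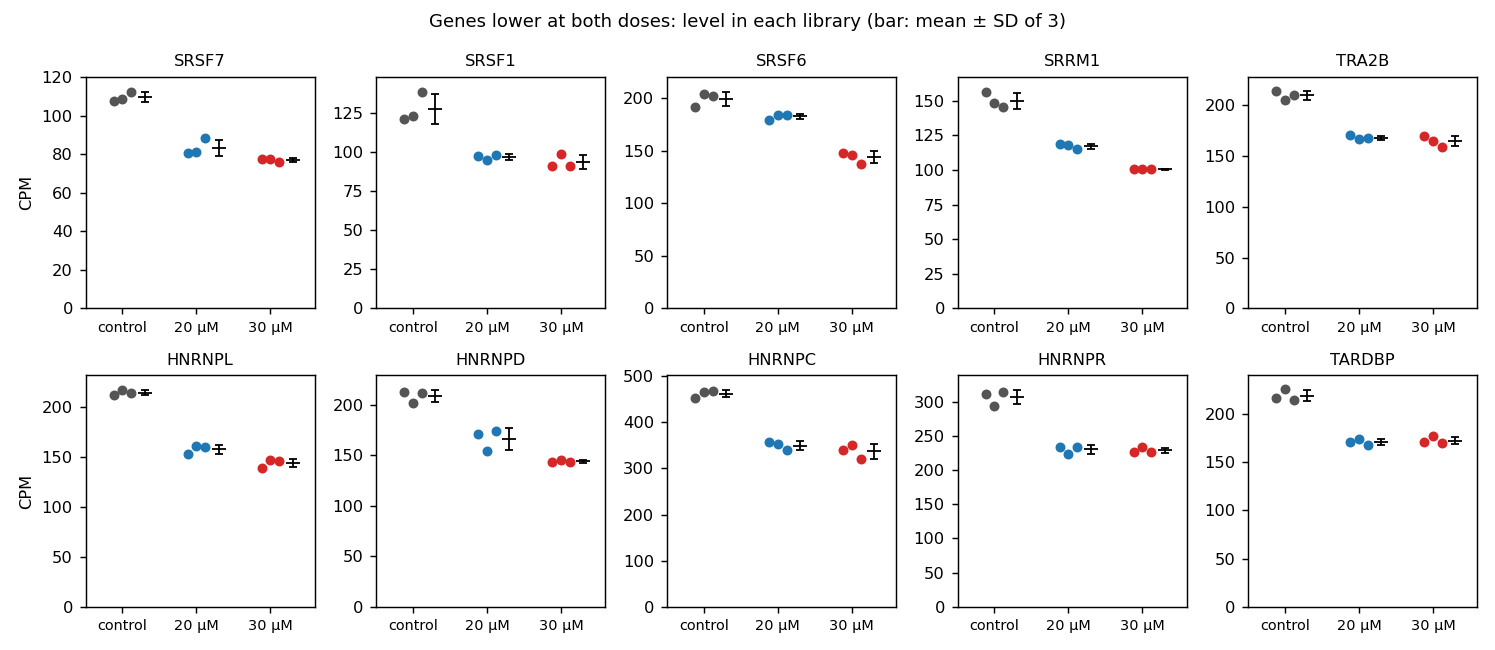
CPM in each library for 10 genes that were lower at both doses than in controls, with the mean and SD of 3 libraries as black bars; each axis starts at 0. In each of the 10 panels the 6 treated libraries lie below the 3 controls, SRRM1 going from 145 to 156 CPM to 100.3 to 101 CPM at 30 µM.

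Of the 18 hnRNP genes 15 fell at 20 µM (83.3%, beside 16.9% of all genes tested) and none rose. At 30 µM 13 fell (72.2%, beside 31.3%) and 2 rose (11.1%, beside 29.5%), or 17 and 0 with library size alone. The share called in either direction at 30 µM was 83.3%, beside 60.8%. The family's median was −0.24 at 20 µM and −0.29 at 30 µM (−0.50 with library size alone). HNRNPL, which binds CA-rich elements, had the largest fall of the family. It was at 212, 216 and 214 CPM in controls, 153, 161 and 160.1 at 20 µM and 139, 147 and 146 at 30 µM. All 3 groups were apart, at −0.44 ± 0.0359 (adjusted p = 9.36e-12), −0.57 ± 0.0361 (1.49-fold lower, adjusted p = 1.6e-15) and, between the doses, −0.13 ± 0.0364 (adjusted p = 0.00236).

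HNRNPD, also known as AUF1, a factor that binds AU-rich elements and governs mRNA decay, was at 212, 201 and 211 CPM, then 171, 154 and 174, then 143, 145 and 143. The groups did not overlap, with −0.33 ± 0.0396 at 20 µM and −0.53 ± 0.04 at 30 µM (adjusted p = 3.97e-08 and 1.38e-13). HNRNPC, which binds uridine tracts and keeps cryptic exons out, was at 453, 464 and 468 CPM, then 357, 352 and 339, then 341, 350.2 and 319, with −0.40 ± 0.0345 and −0.46 ± 0.0346 (adjusted p = 2.66e-11 and 1.85e-13). HNRNPR was at 312, 294 and 314 CPM, then 234, 223 and 234, then 227, 233 and 226, with −0.41 ± 0.0347 and −0.42 ± 0.0348 (adjusted p = 1.86e-11 and 1.37e-12). In HNRNPC and HNRNPR the step between the doses did not pass, at −0.05 (adjusted p = 0.207) and −0.01 (adjusted p = 0.828). It did with upper-quartile scaling, at −0.13 (0.00184) and −0.09 (0.0345), and with library size alone, at −0.25 and −0.20.

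HNRNPA2B1, HNRNPA3, HNRNPDL, HNRNPH1 and HNRNPH3 also fell at both doses, with changes at 30 µM of −0.30, −0.38, −0.32, −0.37 and −0.41. HNRNPH3 was −0.15 between the doses (adjusted p = 0.00581), which was lost without 20 µM replicate 3 (0.0611) or 30 µM replicate 1 (0.0723), in a range of 5.26e-08 to 0.0788 over the alternatives. HNRNPA0 fell at 30 µM from 221, 228 and 240.2 CPM to 181, 198 and 187 (−0.28 ± 0.0449, adjusted p = 7.49e-06), and was at −0.08 at 20 µM (adjusted p = 0.156), which passed without 20 µM replicate 3 (−0.13, 0.0302) and without the 3 libraries that stood apart (−0.16, 0.00715). HNRNPA1, the most abundant of the 43 per length and a classic antagonist of SRSF1, passed in no comparison with TMM (with library size alone it was at −0.22 at 30 µM, adjusted p = 0.000267). It was at 763, 830.2 and 810.4 CPM in controls, 793, 813 and 778 at 20 µM and 834, 818 and 743 at 30 µM, and all 3 groups overlapped (−0.01 ± 0.0383 at either dose). The annotation names 74 processed copies of HNRNPA1, whose counts came to 2.02% of its own, and 16 of HNRNPA3, at 6.03%, so reads shared with copies may be missing from both.

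HNRNPH1 and HNRNPH2, paralogs that bind G-runs, moved in opposite directions. HNRNPH1 was at 449, 442 and 455 CPM in controls, 401, 374 and 399 at 20 µM and 344, 352 and 348 at 30 µM, with −0.20 ± 0.0325 and −0.37 ± 0.0327 against control (adjusted p = 1.03e-05 and 1.01e-11). HNRNPH2 was at 37.0, 40.5 and 39.6 CPM, then 37.3, 37.8 and 43.1, then 46.2, 47.9 and 44.8. Its controls and 20 µM libraries overlapped (0.01, adjusted p = 0.9), and at 30 µM all 3 libraries lay above the rest, at 0.25 ± 0.0583 (adjusted p = 0.000417; 0.587 with library size alone, range 2.76e-05 to 0.587). Their log2 ratio within a library, which no scaling can move, was 3.52 ± 0.0742 in controls (SD, n = 3), 3.32 ± 0.108 at 20 µM and 2.91 ± 0.0431 at 30 µM. Of the HNRNPH2 exon bases 16.3% are shared with the read-through transcript RPL36A-HNRNPH2.

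A group of 10 genes was called lower at 20 µM than in controls and higher at 30 than at 20 µM: HNRNPAB, HNRNPF, HNRNPK, HNRNPM, HNRNPU, PTBP1, SRSF9, SON, SRPK1 and RBM3. Both comparisons use the libraries at 20 µM. With library size alone the second step was below 0 in SRSF9, SON, SRPK1, HNRNPK, HNRNPM, HNRNPU and RBM3. In HNRNPF it did not pass there (adjusted p = 0.728). With upper-quartile scaling the second step passed in HNRNPF but not in the other genes just named (adjusted p of 0.0874 to 0.737). It kept its call under every alternative in HNRNPAB and PTBP1.

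HNRNPAB, a relative of HNRNPD that binds AU-rich RNA, was at 202, 199 and 201 CPM in controls, 151, 155 and 163 at 20 µM and 189, 197 and 201 at 30 µM. The libraries at 20 µM lay below all others, and those at 30 µM overlapped the controls. The changes were −0.36 ± 0.0366 (adjusted p = 9.75e-10) at 20 µM, −0.04 ± 0.0364 (adjusted p = 0.411; −0.10 and 0.0208 with upper-quartile scaling) at 30 µM and 0.33 ± 0.0368 (adjusted p = 2.53e-09) between the doses. The log2 ratio of HNRNPD to HNRNPAB within a library was 0.05 ± 0.0312 in controls (SD over 3 libraries), 0.09 ± 0.0927 with 20 µM and −0.44 ± 0.0445 with 30 µM.

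PTBP1, a repressor that binds polypyrimidine tracts, was at 604, 614 and 589.8 CPM in controls, 505, 536 and 542 at 20 µM and 625, 624 and 661 at 30 µM. The 20 µM libraries were lowest and the 30 µM libraries highest, with no overlap. It fell by 0.19 (SE 0.0334, adjusted p = 2.15e-05) on the log2 scale at 20 µM and rose by 0.27 ± 0.0335 from there (adjusted p = 1.89e-08). Its excess over control at 30 µM, 0.08 ± 0.0334 (adjusted p = 0.0407), was −0.13 with library size alone. It did not pass without control replicate 1 or 3, 20 µM replicate 3, or 30 µM replicate 1 or 3 (0.0531 to 0.22), in a range of 0.000489 to 0.671 over all alternatives.

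HNRNPF, the family's G-run binder with the highest level per length after HNRNPA1, was at 448, 449.7 and 451 CPM, then 390.3, 400.3 and 418, then 460.3, 463 and 472. The order of the groups was the same as for PTBP1, again with no overlap. It was −0.16 ± 0.0319 at 20 µM (adjusted p = 0.000156), 0.05 at 30 µM (adjusted p = 0.188; −0.16 with library size alone) and 0.21 ± 0.0319 between the doses (adjusted p = 1.18e-06). HNRNPU, also known as scaffold attachment factor A, was at 861, 823 and 833 CPM, then 666, 628 and 706, then 699, 719 and 725. It stayed below the controls at both doses, at −0.33 and −0.23 (adjusted p = 2.85e-09 and 6.65e-07). Its step of 0.10 between the doses (adjusted p = 0.0156) was −0.09 with library size alone and did not pass without 20 µM replicate 2 (0.161), 30 µM replicate 2 (0.0572) or 30 µM replicate 3 (0.0543), in a range of 0.00118 to 0.61. Of the HNRNPU exon bases 15.6% overlap COX20 on the opposite strand.

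HNRNPK, which binds C-rich RNA and DNA, was at 597, 608 and 606 CPM, then 516, 511 and 539, then 577, 580.0 and 566. HNRNPM, which binds GU-rich RNA, was at 221, 226 and 224 CPM, then 192, 187 and 201, then 209, 210.4 and 208. Both fell at 20 µM by 0.21 on the log2 scale (adjusted p = 1.43e-06 and 1.05e-05). At 30 µM both lay below the controls without overlap, at −0.07 (adjusted p = 0.0445) and −0.09 (adjusted p = 0.0179). The HNRNPK call was lost without control replicate 2 or 3 or any library at 30 µM (0.0672 to 0.16, range 6.41e-10 to 0.231). The HNRNPM call was lost without control replicate 2 (0.0677) or 30 µM replicate 3 (0.0524), in a range of 1.64e-09 to 0.101. Between the doses they were 0.14 and 0.11 higher (adjusted p = 0.000259 and 0.00579), which turned to −0.05 and −0.08 with library size alone. With upper-quartile scaling these steps were 0.06 and 0.04 and did not pass (adjusted p = 0.0874 and 0.386).

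**Figure D4:**
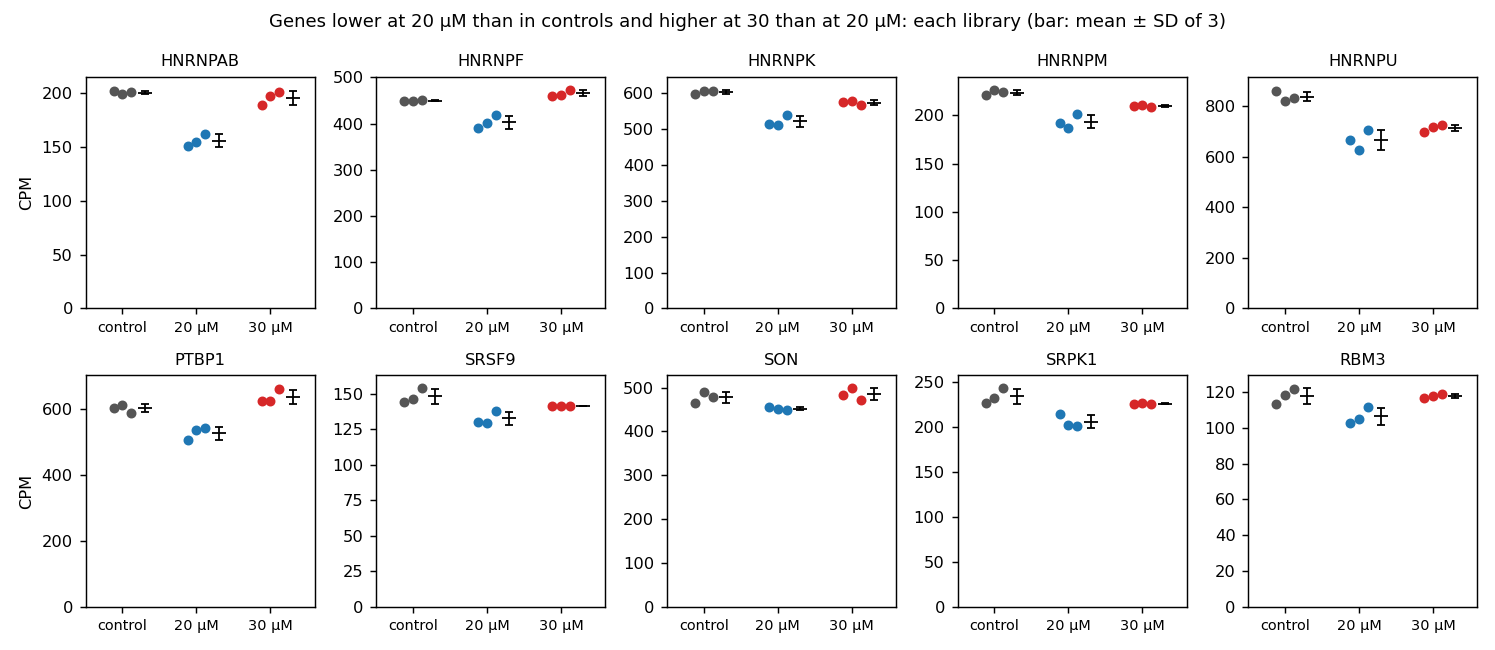
CPM in each library for the 10 genes called lower at 20 µM than in controls and higher at 30 than at 20 µM, with the mean and SD of 3 libraries as black bars; each axis starts at 0. The dip is deepest in HNRNPAB (151 to 163 CPM at 20 µM against 199 to 202 in controls). The second step turned below 0 with library size alone in SRSF9, SON, SRPK1, HNRNPK, HNRNPM, HNRNPU and RBM3. In the same genes it did not pass with upper-quartile scaling.

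Of the 4 further RNA-binding proteins, TARDBP, which encodes TDP-43, a repressor of cryptic exons, was at 217, 226 and 215 CPM in controls, 171, 174 and 168 at 20 µM and 171, 177 and 169.5 at 30 µM. All treated libraries lay below the controls, at −0.36 ± 0.0351 and −0.35 ± 0.0352 (adjusted p = 5.67e-10 and 2.29e-10), and the treated groups overlapped. Of its exon bases 28.99% overlap AL109811.4 on the same strand. RBM39, a splicing coactivator with an SR-like domain, was at 498, 496 and 519 CPM, then 524, 485 and 509, then 544, 556 and 525. Its rise of 0.10 ± 0.0336 at 30 µM (adjusted p = 0.00857) turned to −0.11 with library size alone. It was also lost without control replicate 2 (0.0524) or 30 µM replicate 2 (0.0741), in a range of 0.000694 to 0.295, and that of 0.10 between the doses (adjusted p = 0.0123; −0.09 with library size alone) without 20 µM replicate 2 (0.0977) or 30 µM replicate 2 (0.0848), in a range of 0.00163 to 0.598.

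CIRBP and RBM3, the cold-inducible RNA-binding proteins, moved in opposite ways between the doses. CIRBP was at 59.0, 61.1 and 64.2 CPM, then 64.0, 64.4 and 67.5, then 51.1, 51.3 and 57.0, and it fell at 30 µM, by 0.21 (SE 0.0509, adjusted p = 0.000619) against control and by 0.30 (SE 0.0508, adjusted p = 6.41e-06) against 20 µM on the log2 scale. RBM3 was at 113, 118 and 122 CPM, then 103, 105 and 112, then 116, 118 and 119. Only its 20 µM libraries stood below the others. It fell at 20 µM by 0.14 (SE 0.0409, adjusted p = 0.00526) on the log2 scale and lay 0.15 ± 0.041 higher at 30 than at 20 µM (adjusted p = 0.00298). That step was −0.05 with library size alone and did not pass with upper-quartile scaling (0.07, adjusted p = 0.157). Their log2 ratio within a library was −0.94 ± 0.0154 in controls, −0.70 ± 0.0219 with 20 µM and −1.15 ± 0.0768 with 30 µM (each with its SD over 3 libraries), so the 3 groups were apart.

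Other within-library ratios were chosen, like those above, after the values had been seen. With 3 libraries a group an exact permutation test of a ratio cannot give a p under 0.1, so it could call none of them. Some of these ratios parted and others did not. The log2 ratio of CLK1 to CLK2 went from 0.34 ± 0.102 in controls to 0.62 ± 0.0671 and then 1.55 ± 0.0588 (SD over 3 libraries) as the dose rose. That of CLK1 to CLK4 was 1.54, 1.57 and 1.95, so CLK1 left its closest relative behind only at 30 µM. HNRNPL to PTBP1, which are often paired as repressors of the same exons, went from −1.49 ± 0.0274 to −1.74 ± 0.0172 and −2.15 ± 0.0508. SRPK1 to SRPK2 was 2.74, 2.59 and 2.56, with controls and treated libraries overlapping.

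**Figure D5:**
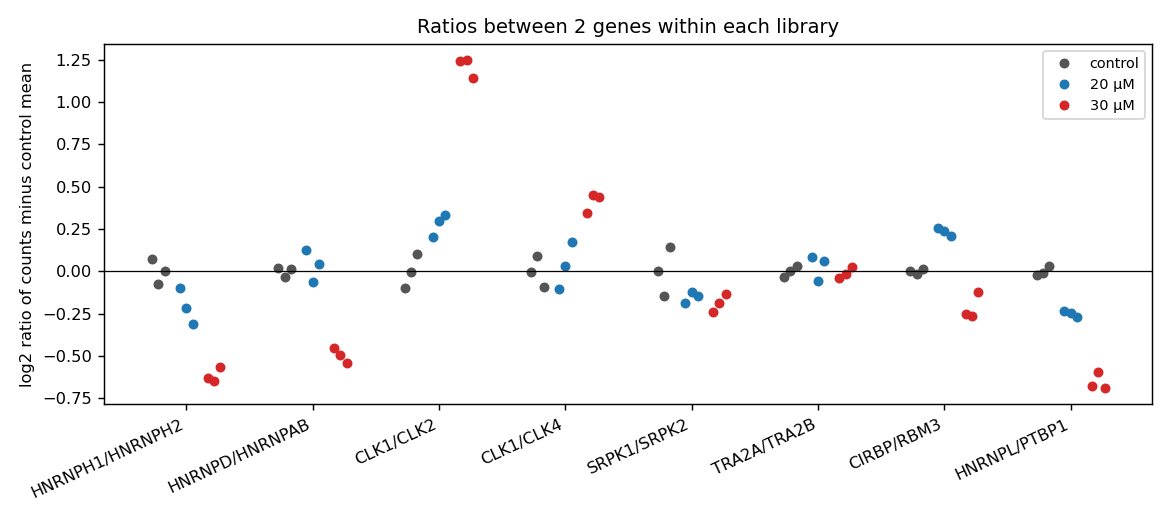
Log2 ratio of the counts of 2 genes in each library, minus the control mean of that pair, for 8 pairs; gray is control, blue 20 µM and red 30 µM. Scaling cancels in these ratios: CLK1/CLK2 stands farthest above 0 at 30 µM, HNRNPH1/HNRNPH2 and HNRNPL/PTBP1 stand below it, and TRA2A/TRA2B stays near it.

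The rest of the splicing pathway was read from 8 lists of 134 genes, none of them among the 43. At 20 µM 87 of the 134 fell (64.9%, beside 16.9% of all genes tested) and 4 rose (2.99%, beside 17.2%). At 30 µM 79 fell (59.0%, beside 31.3%) and 19 rose (14.2%, beside 29.5%). Between the doses 33 fell (24.6%, beside 28.9%) and 47 rose (35.1%, beside 28.0%). The 59.7% called between the doses was near the 57.0% of all genes. That split turned to 50 lower and 27 higher with upper-quartile scaling, and to 79 and 14 with library size alone. The medians were −0.17, −0.18 and 0.04. Of 13 genes of the Sm ring and of the U1 snRNP, the latter of which recognises the 5′ splice site, 11 and then 13 fell and none rose. SNRPA and SNRPE fell by most, at −0.64 and −0.63 at 30 µM. Of 15 genes of the U2 snRNP and the 3′ splice site 12 and then 9 fell and none rose (1 rose at 30 µM with median-ratio scaling), with PHF5A at −0.40 and SF3B3 at −0.39 at 30 µM. The 60.0% called in this list at 30 µM was near the 60.8% of all genes. All of it was lower, beside 31.3% lower over all genes. Of 12 tri-snRNP genes 11 and then 10 fell and none rose, with SNRNP40 at −0.83 and USP39 at −0.58.

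In 3 of the other lists the share called at 30 µM was also near the 60.8% of all genes: 61.1% for the PRP19 complex and catalytic steps, 60.0% for the SR protein relatives and 64.3% for the other kinases, phosphatases and importers. Of 18 genes of the PRP19 complex and the catalytic steps 7 fell and 4 rose (13 and 2 with library size alone); SLU7, a factor in choosing the 3′ splice site, was at 0.74 ± 0.0877 (adjusted p = 4.26e-06) and SYF2 at 0.55, while PLRG1 was at −0.37 and PRPF19 at −0.25. Of 15 genes of the exon junction complex and nonsense-mediated decay 9 fell and 2 rose (73.3% called): MAGOHB was at −0.91 and UPF3B at −0.63, and SMG1, the kinase that starts decay, was at 0.33 and CASC3 at 0.30. Of 10 SR protein relatives 5 fell and 1 rose, with PNN at −0.38, THRAP3 at −0.32 and SRSF12 at 1.06 from 0.54 to 0.77 CPM in controls to 1.11 to 1.57 CPM.

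Of 14 other kinases, phosphatases and importers that act on SR proteins, 7 fell and 1 rose at 20 µM, and 3 fell and 6 rose at 30 µM (7 and 5 with library size alone). TOP1, which encodes a topoisomerase that can also phosphorylate SR proteins, went from 227, 221 and 228 CPM to 190, 176 and 191 at 20 µM and 333, 331 and 329 at 30 µM. It was called in both directions, at −0.28 ± 0.0349 (adjusted p = 7.72e-08) and 0.56 ± 0.0346 (adjusted p = 1.13e-15). TNPO1, an importin that carries HNRNPA1 into the nucleus, followed the same course, at −0.17 and 0.46 (adjusted p = 0.000372 and 4.04e-13). PPP1R8 and DYRK1B were at −0.34 and −0.67 at 30 µM.

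Among 37 other splicing regulators 23 fell and 6 rose at 30 µM (78.4% called). MBNL2, a regulator of developmental exon choice, was at 49.2, 46.2 and 47.6 CPM in controls, 58.2, 60.5 and 59.9 at 20 µM and 160, 160 and 155 at 30 µM. That is 0.32 ± 0.0437 at 20 µM (adjusted p = 4.19e-07) and 1.73 ± 0.0423 at 30 µM (adjusted p = 9.41e-27), above the change of any of the 43 genes. MBNL1 was at 0.01 at 20 µM (adjusted p = 0.937) and 0.73 at 30 µM (adjusted p = 1.98e-17), while RBM4 and TAF15 were at −0.80 and −0.58 at 30 µM.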

How the data were processed

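The authors deposited raw read counts by gene for each library. The submitters' processing notes name FastQC, STAR 2.7.10a, HTSeq and hg38. Neither the annotation release nor the strand setting of the counting is given in the sources used here. The labels give polyA RNA as the molecule but a ribosomal depletion kit as the protocol; gene counts can depend on which was used. The 43 members and the lists were chosen with earlier results of these data known.

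Genes were kept with filterByExpr (99.9% of counts), scaled by TMM and fitted by robust quasi-likelihood in edgeR 4.0.16 under R 4.3.3, with 1 mean for each group and all 9 libraries in the fit (common biological coefficient of variation, 0.0529); p-values were Benjamini-Hochberg adjusted over all 17623 genes. The SE is the log2 change divided by the root of F. Members named with every library are, per family, up to 4 largest rises and falls at 30 µM past the test and those called in opposite directions; of each pathway list up to 2 rises and 2 falls. Others were chosen after their values were seen. Exon lengths, positions and overlaps come from GENCODE 29. Replicate pairs differed by 2.06 to 7.74 chi-square units per gene, so each was counted. Alternatives were other scalings, DESeq2 1.42.0, limma 3.58.1 voom, other low-count filters (none, or a mean of 50 counts), a replicate block, only the groups compared, and libraries left out. Splicing itself was not analysed here.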

Additional observations from a re-analysis of the deposited data

How the results depend on the processing

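Of the 6 rises at 30 µM, CLK1 held under all 20 alternatives, CLK3, CLK4 and HNRNPH2 under all but library size alone, and PTBP1 and RBM39 failed under 10 and 4. The member count higher at 20 µM was 2 with upper-quartile scaling, 2 with a mean of at least 50 counts and 1 to 2 with single libraries left out (2 without control replicate 3). Between the doses, upper-quartile scaling gave 5 members higher and 22 lower. Library size alone gave 1 member higher at 30 µM against control, 3 higher and 32 lower between the doses, and over all genes 3029 higher and 7690 lower between the doses; against control at 30 µM it gave 3530 higher and 8022 lower over all genes, beside 5192 and 5515 with TMM. With single libraries left out, members lower at 20 µM numbered 29 to 31, members higher and lower at 30 µM 5 to 6 and 25 to 27, and between the doses 11 to 15 and 10 to 15. Over all member results and alternatives, 2420 kept their side of the threshold, 86 lost it, 53 gained it and 21 reversed.

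All 21 reversals came with library size alone, which lowers every value at 30 µM. At 30 µM against control the log2 changes then were PTBP1 −0.13, RBM3 −0.21, SRSF11 −0.21, RBM39 −0.11, SON −0.19, HNRNPF −0.16 and CLK3 −0.0069. Between the doses they were SRPK1 −0.059, HNRNPM −0.0802, RBM3 −0.0482, SRSF9 −0.10, SRSF4 −0.17, SRSF11 −0.14, TARDBP −0.18, RBM39 −0.0946, SRPK2 −0.0237, HNRNPA1 −0.19, HNRNPU −0.0942, SON −0.0903, HNRNPK −0.0546 and CLK3 −0.0343.

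Same-numbered libraries of different groups deviated together with correlations of −0.20 to 0.35, so the numbers do not pair them. With a replicate block 1 member was higher and 30 lower at 20 µM, 5 and 26 at 30 µM, and 15 and 12 between the doses. The calls it ended were HNRNPK (adjusted p = 0.0616) and PTBP1 (0.0513) at 30 µM and SON (0.0604) at 20 µM. With 3 libraries a group, small changes near 0.1 on the log2 scale are at the limit of what these data can call.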

Other observations

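DHX15 and SFPQ, chosen after their values were seen, followed the course of HNRNPAB. DHX15, the helicase that releases the spent spliceosome, was at 189, 180 and 191 CPM in controls, 148, 139 and 151 at 20 µM and 193, 201 and 184 at 30 µM, with log2 changes of −0.36 ± 0.0394 at 20 µM (adjusted p = 6.48e-09), 0.05 at 30 µM (adjusted p = 0.31) and 0.40 ± 0.0395 between the doses (adjusted p = 1.22e-10). SFPQ, a paraspeckle protein, was at 518, 507 and 511 CPM, then 400, 404 and 426, then 503, 518 and 536, with −0.32 ± 0.0329 (adjusted p = 1.37e-09), 0.02 (adjusted p = 0.615) and 0.34 ± 0.0329 (adjusted p = 8.68e-11). In both genes the libraries at 20 µM lay below all others. TNPO3, the importin that carries SR proteins into the nucleus, was at 82.6, 84.9 and 80.4 CPM, then 68.7, 77.7 and 71.3, then 79.5, 79.5 and 79.6.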
